A study of Mus musculus with 71 samples.

Results

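Of the 71 hippocampal libraries in the series, 12 bear on 1 question: how does the nocturnal translatome of an undisturbed mouse differ between a high-fat sucrose diet and chow? They are 6 mice on high-fat sucrose food ad libitum (HFS ad lib) and 6 mice on normal chow ad libitum (NC ad lib). The labels set these groups, but they were chosen with earlier results of these data known. A repeat without HFS ad lib replicate 2 was planned because its microglial genes had already been seen to stand far above the rest. All 12 mice were taken from the home cage (HC) at zeitgeber time 15 (zt15), 3 h after lights off. All were male C57BL/6J mice from Janvier that received their diet from 3 weeks of age for 12 weeks and were neither trained nor placed on time-restricted feeding (TRF). Mice were housed 6 to a cage and the labels do not say which mice shared one, so cage and diet cannot be told apart. A gene was tested where it had at least 10 counts in total over the 71 mice, which left 30141 genes of the 57010 in the count table, and 14577 of these averaged at least 1 CPM (counts scaled to library size) in the 12 mice.

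The libraries were made by pS6-TRAP, in which ribosomes that carry the phosphorylated form of ribosomal protein S6 are captured with an antibody and the mRNA bound to them is sequenced. S6 is phosphorylated when the mTOR pathway is active, so the captured mRNA is weighted towards active cells. In the hippocampus most of it comes from neurons. Microglia are the resident macrophages of the brain. They survey the tissue through receptors such as Cx3cr1 and P2ry12, depend on the growth factor receptor Csf1r, and make the C1q proteins that start the classical complement cascade. Diets rich in fat and sugar supply saturated fatty acids and glucose in excess, and cells answer such supply through the insulin, sterol and fatty acid pathways.

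Depth was similar between the diets. NC ad lib libraries held 34698914 counts at the lowest, 49824670 at the median and 56879224 at the highest. HFS ad lib libraries held 46952914, 53505602.5 and 58754989 counts. The shallowest library was NC ad lib replicate 4. Between 79.3 and 82.4% of the counts under 20 in these libraries were even numbers, so both mates of a read pair were most likely counted. Markers of hippocampal neurons were present in every mouse. Camk2a, a kinase of excitatory neurons, stood at 4070 CPM or more, Prox1, a transcription factor of dentate granule cells, at 66.2 CPM or more, and Fibcd1, a marker of CA1 pyramidal cells, at 134 CPM or more.

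One library stood apart before any test. In HFS ad lib replicate 2, 99 of the 14577 genes lay more than 3 times above the next-highest of the 12 mice, against 0 to 2 such genes in each of the other 11. Of the 15 microglia markers 14 were among these 99 genes, while none of the members of the 12 other marker lists was. The summed level of the 15 microglia markers was 859 CPM in this mouse. It was 122, 124, 126, 127 and 127 CPM in the other HFS ad lib mice and 75, 103, 116, 121, 121 and 133 CPM in the NC ad lib mice. Among all 71 mice of the series the next-highest sum was 210 CPM, in a trained mouse on HFS TRF. No microglia marker was at 0, and C1qa was the most abundant of them per length at 9.66 CPM per kb. In tissue, more cells of a type and more captured RNA per cell cannot be told apart, and what set this library apart was not tested.

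**Figure D1:**
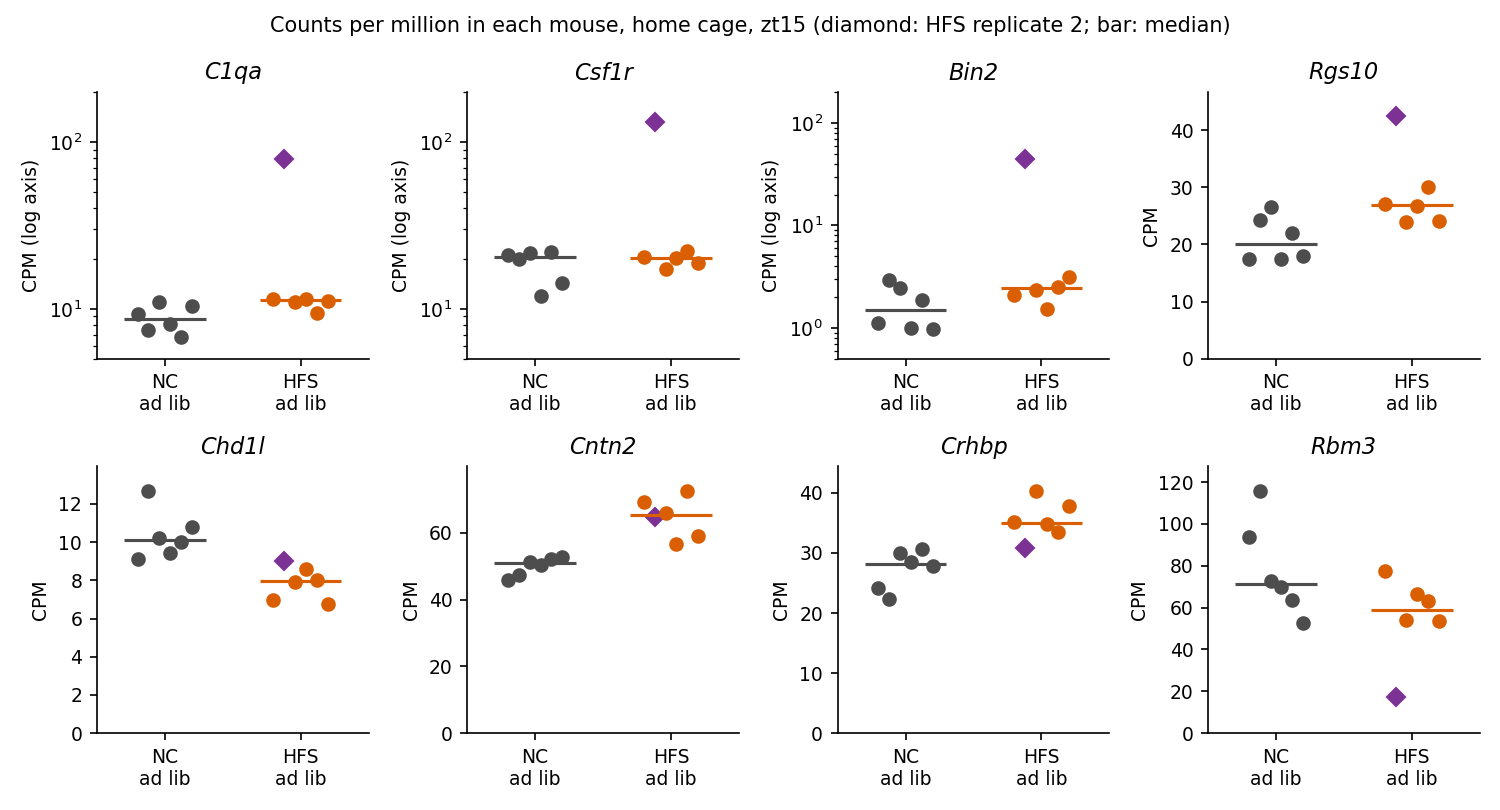
Level (CPM) of 8 genes in each of the 12 mice (C1qa, Csf1r and Bin2 on a log axis, the others on a linear axis from 0), with NC ad lib in grey, HFS ad lib in orange, HFS ad lib replicate 2 as a purple diamond and a bar at each group's median. HFS ad lib replicate 2 reached 79.2 CPM of C1qa and 133 CPM of Csf1r, while its Rbm3 was 17.5 CPM.

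With all 12 mice, 19 genes were higher in HFS ad lib (0.063% of the genes tested, edgeR's quasi-likelihood test, Benjamini-Hochberg adjusted p under 0.05), and 0 were lower (0%). DESeq2 gave 50 higher and 7 lower, with all 19 genes of edgeR among them. At an unadjusted p under 0.05, edgeR counted 1742 genes higher and 2011 lower, together 12.5% of those tested, and DESeq2 1150 and 1216. Of the 19 genes 16 belonged to the 99 that stood apart in HFS ad lib replicate 2, and 6 were microglia markers, namely C1qa, C1qb, C1qc, Ctss, Cx3cr1 and Fcrl2. The repeat without HFS ad lib replicate 2 called 0 genes in either direction (0% of 30103, edgeR), with 3062 genes (10.2%) at an unadjusted p under 0.05, while DESeq2 called 1 gene higher and 3 lower. The count of 19 also depended on other mice. It was 0 without NC ad lib replicate 1, 4, 5 or 6 and 1 without NC ad lib replicate 2. It was 37 without HFS ad lib replicate 1, 35 without replicate 3, 34 without replicate 4 and 30 without replicate 6.

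The complement genes lie side by side on chromosome 4 and encode the 3 chains of C1q. C1qa (ENSMUSG00000036887, GRCm39 chromosome 4, 136623223 to 136626161) was at 6.79 CPM at the lowest, 8.66 at the median and 11 at the highest in NC ad lib. In the 5 other HFS ad lib mice it was at 9.44, 11.1 and 11.5 CPM, and in replicate 2 at 79.2 CPM. The 2 sets of values overlapped, and 4 of the 6 HFS ad lib mice lay above every NC ad lib mouse. The fitted difference was 1.34 ± 0.27 (log2, SE, n = 6 and 6) with an adjusted p of 0.0417 by edgeR, and 0.31 ± 0.16 without replicate 2, where the adjusted p was 0.521. C1qb (ENSMUSG00000036905, chromosome 4, 136606009 to 136613511) differed by 1.39 with all mice and by 0.26 without replicate 2. C1qc (ENSMUSG00000036896, chromosome 4, 136616466 to 136620376) differed by 1.33 and by 0.31. The calls of these 3 genes by edgeR were lost without replicate 2, and so were those of the other 16 genes.

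Bin2 (ENSMUSG00000098112, chromosome 15, 100538958 to 100567441), a membrane-bending protein of phagocytes, had a large difference among the called genes, 2.44 ± 0.46 (log2, SE) with an adjusted p of 0.0417 by edgeR. Its NC ad lib values were 0.974 CPM at the lowest, 1.5 at the median and 2.97 at the highest, against 1.52, 2.37 and 3.14 in the 5 other HFS ad lib mice and 44.9 in replicate 2. Without that mouse the difference was 0.42 and the groups overlapped over most of their range. The fractalkine receptor Cx3cr1 (ENSMUSG00000052336, chromosome 9, 119877749 to 119898945) went from a log2 difference of 1.31 to 0.22. The lysosomal protease Ctss (ENSMUSG00000038642, chromosome 3, 95433963 to 95463717) went from 1.30 to 0.27. The Fc receptor gene Fcgr3 (ENSMUSG00000059498, chromosome 1, 170878738 to 170893549), whose family members share sequence, went from 1.46 to 0.37. The lipopolysaccharide co-receptor gene Ly86 (ENSMUSG00000021423, chromosome 13, 37529184 to 37603012) went from 1.97 to 0.23. Gngt2, Laptm5, Selplg, Ncf1, Fcrl2 and Inpp5d were called with all mice at log2 differences between 1.1 and 1.95, and without replicate 2 theirs lay between 0.18 and 0.53. Selplg, Ncf1, Inpp5d, Tnfrsf1b and Gm6311 fell outside the rule for named genes and were picked after their values were seen.

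Not every microglia marker was called by edgeR. Csf1r (ENSMUSG00000024621, chromosome 18, 61229714 to 61266535) differed by 1.07, with an adjusted p of 0.0973 by edgeR (0.0182 to 0.943 over the alternatives tried, 0.0346 by DESeq2), and by 0.10 without replicate 2. Its 5 other HFS ad lib mice, at 17.4 to 22.3 CPM, lay within or just above the NC ad lib range of 11.9 to 22 CPM. Over the 15 microglia markers, edgeR called 6 with all mice and DESeq2 9, all 15 differences were positive and their median was 1.30. Without replicate 2, edgeR called 0, 13 were positive and 2 negative, none reached an unadjusted p under 0.05 by edgeR, and the median was 0.21, against a median of 0.00 over all genes tested.

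Rgs10 (ENSMUSG00000030844, chromosome 7, 127975345 to 128020482) was, with Tnfrsf1b and Gm6311, one of 3 called genes outside the 99. It encodes a regulator of G protein signalling found in microglia and neurons. Its level was 17.4 CPM at the lowest, 20 at the median and 26.6 at the highest in NC ad lib, 23.9, 26.7 and 30.1 in the 5 other HFS ad lib mice and 42.4 in replicate 2. All 6 HFS ad lib mice lay above the NC ad lib median and 4 above every NC ad lib mouse. The difference was 0.47 ± 0.10 (log2, SE, n = 6 and 6, adjusted p = 0.0417 by edgeR, from 0.00629 to 0.874 over the alternatives tried). Without replicate 2 it was 0.33 ± 0.09 and no longer passed (adjusted p = 0.480 by edgeR and 0.385 by DESeq2). Tnfrsf1b (ENSMUSG00000028599, chromosome 4, 144938938 to 144973477), a receptor for tumour necrosis factor, differed by 1.33 with all mice and by 0.72 without replicate 2, and 4 of 6 HFS ad lib mice lay above every NC ad lib mouse. Tifab (ENSMUSG00000049625, chromosome 13, 56321514 to 56326814) differed by 1.5 and by 0.60.

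The last of the 19 genes, Gm6311 (ENSMUSG00000061833, chromosome 13, 76102255 to 76103132), is a processed pseudogene, and reads of its parent gene may fall on it. It had 0 counts in each NC ad lib mouse and 0, 2, 10, 8, 2 and 6 counts in HFS ad lib replicates 1 to 6. Taken over each group, its share of counts was at least 8.6-fold higher in HFS ad lib, against a floor of 3 counts in the whole NC ad lib group. The fitted difference depends on the prior count and is not given. Every HFS ad lib mouse, at 0 to 0.167 CPM, lay below the median of 0.264 CPM over the 70 mice of the series other than HFS ad lib replicate 2. That mouse was at 0.0376 CPM. The call thus rests on the absence of counts in NC ad lib and not on a high level in HFS ad lib.

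Beyond the microglia markers, single genes among the 99 also reached a high level in the same library. Lcn2 (ENSMUSG00000026822, chromosome 2, 32274645 to 32278264), the secreted iron-siderophore binder lipocalin 2, had 932 counts there, or 17.5 CPM. The 11 other mice had 0 to 4 counts each, and the highest of the 70 other mice of the series was at 0.952 CPM. Fcgr2b reached 9.74 CPM against 1.77 in the highest of those 70, and Rac2, a GTPase of the phagocyte oxidase, 16 against 3.28. All 99 genes were higher in this library than in any other of the 71, and 78 of them by more than 3 times. Among the 99 were also F13a1 at 6.54 CPM against 3.71 in the highest of the other 70, Stab1 at 15.5 against 6.7 and Cbr2 at 6.02 against 1.91. The 99 genes had a median log2 difference of 1.12 with all mice and of 0.18 without replicate 2, where 74 were positive and 25 negative. These genes were picked by their values in that mouse, so the first of these medians is a description.

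B2m, Apoe, Gfap and Serpina3n stood out less in this library. B2m, which pairs with class I antigen-presenting molecules, was at 37.2 CPM in this mouse against 16.5 to 34.8 in NC ad lib. The summed level of the 22 cytokine and microglial activation genes was 576 CPM there, within the NC ad lib range of 448 to 1780 CPM. Apoe made up most of that sum at 467 CPM, so the sum says little about the other members. Of these, Tgfb1 was at 9.2 CPM in this mouse against 1.23 to 2.99 in NC ad lib. Lgals3 went the other way, at 2.14 CPM against 2.46 to 11.4. The astrocyte filament gene Gfap was at 332 CPM in this mouse, close to the NC ad lib median of 334. Serpina3n, a protease inhibitor of reactive astrocytes, was at 67.1 CPM there against 37.4 to 50.4 in NC ad lib.

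At the other end, 15 genes were more than 3 times below the next-lowest mouse in HFS ad lib replicate 2, and 10 such genes were found in NC ad lib replicate 4. Rbm3 (ENSMUSG00000031167, chromosome X, 8004213 to 8012119), an RNA-binding protein whose mRNA is induced by cooling, was at 17.5 CPM, against 53.8 to 77.6 in the 5 other HFS ad lib mice and 52.6 to 116 in NC ad lib. It was the lowest value of all 71 mice, the next being 31.1 CPM. Its pseudogene Rbm3-ps, which can share reads with it, was at 1.45 CPM against 5.03 in the next-lowest of the 12 mice and 2.19 in the lowest of the other 70. Tnc, an extracellular matrix glycoprotein, was at 0.15 CPM against 1.17 or more in the 11 others and 0.727 or more in the other 70. The leptin receptor gene Lepr was at 0.0752 CPM against 0.516 or more in the 11 others, but another of the 70 mice was at 0.104 CPM. The meningeal marker Igf2 was at 0.113 CPM in this mouse, whose choroid plexus sum of 258 CPM was the lowest of the 12. These genes, too, were picked after their values were seen.

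**Figure D2:**
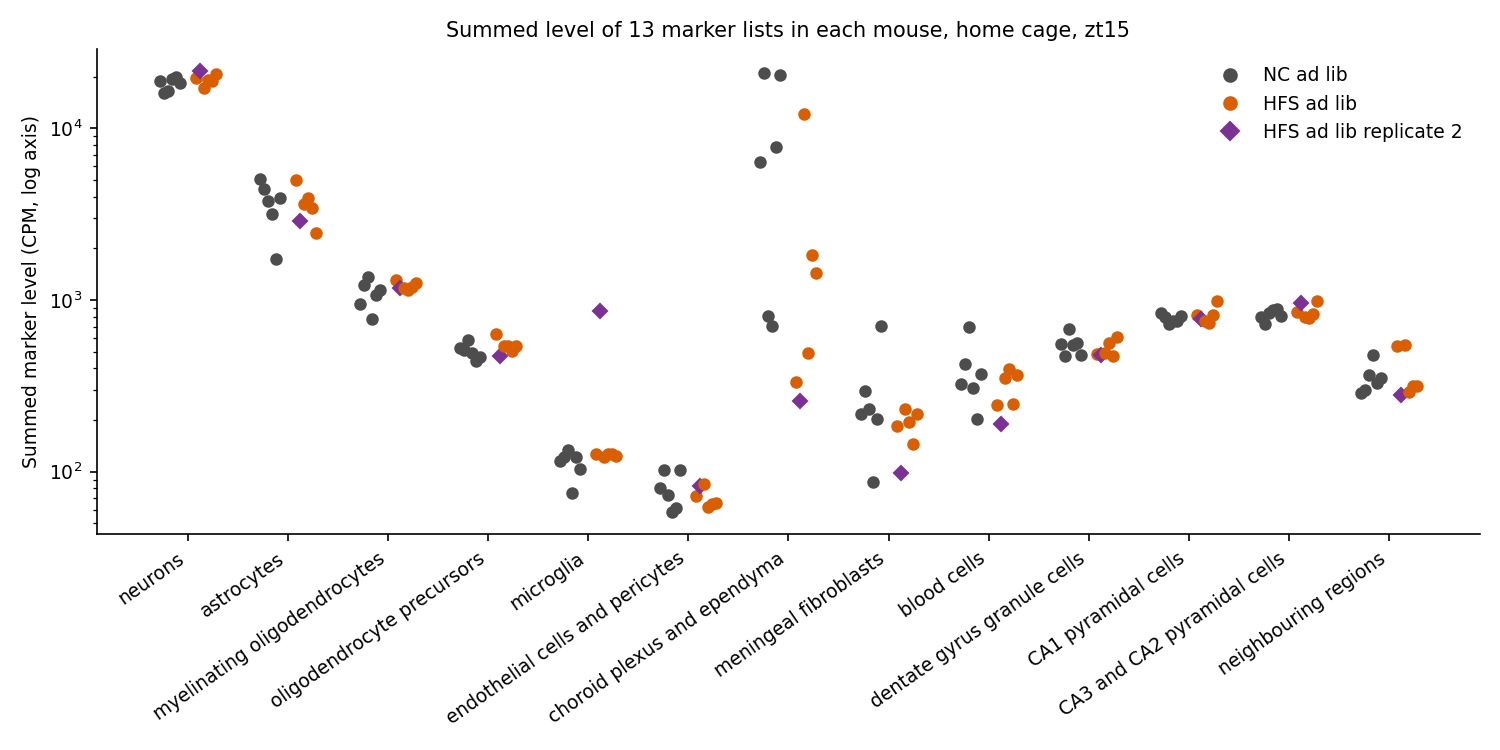
Summed CPM (log axis) of the markers of 13 cell types and regions in each of the 12 mice, NC ad lib in grey, HFS ad lib in orange and HFS ad lib replicate 2 as a purple diamond. The microglia sum of that mouse was 859 CPM, and the choroid plexus and ependyma sum ran from 258 to 20900 CPM over the mice.

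Markers of most other cell types differed little between the diets, apart from those of choroid plexus, meninges and blood given further below. All 15 neuron markers had positive differences with a median of 0.12, and 4 of them, Map2, Stmn2, Gad2 and Slc32a1, reached an unadjusted p under 0.05 by edgeR, but none was called. Among all genes averaging at least 1 CPM, 51.2% of differences were positive. By edgeR, 4.47% of these genes reached an unadjusted p under 0.05 upward and 5.32% downward. The summed level of the neuron markers was 16100 to 19800 CPM in NC ad lib and 17200 to 21500 CPM in HFS ad lib, where replicate 2 was the highest. Of the 15 astrocyte markers 13 had negative differences, with a median of -0.06, and without replicate 2 the split was 8 positive and 7 negative. Without HFS ad lib replicate 1 all 15 were negative, with a median of -0.21. Without HFS ad lib replicate 6 the split was 10 positive and 5 negative, with a median of 0.03. The 15 markers of myelinating oligodendrocytes had a median of 0.26, with 13 positive, 5 of them and 1 negative one at an unadjusted p under 0.05 and 0 called. Mbp, the myelin basic protein gene, was at 307 CPM at the lowest, 414 at the median and 511 at the highest in NC ad lib and at 435, 458 and 534 in HFS ad lib, with all 6 HFS ad lib mice above the NC ad lib median. Mobp, Cldn11, Mal, Ermn and Mog, the 5 positive ones at an unadjusted p under 0.05, were picked after their values were seen. Their log2 differences were 0.34, 0.39, 0.35, 0.47 and 0.36, and none was called. The negative one, Trf, was at 30.3 to 218 CPM in NC ad lib and at 42.3 to 77.8 CPM in HFS ad lib.

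Oligodendrocyte precursor markers had a median of 0.10 (13 of 15 positive) and endothelial and pericyte markers of 0.25 (10 of 15 positive). The endothelial and pericyte median was 0.10 without HFS ad lib replicate 5 and 0.48 without HFS ad lib replicate 1. The most abundant genes of these lists were Tnr and Slc2a1, the glucose transporter of the blood-brain barrier, which differed by 0.08 and -0.28. Within the hippocampus, the 10 dentate granule cell markers had a median of -0.10, the 8 CA1 markers of 0.04 and the 9 CA3 and CA2 markers of 0.06. The 15 markers of neighbouring regions had a median of 0.05. Their most abundant gene, Prkcd, was at 195 CPM in HFS ad lib replicate 1, 180 in HFS ad lib replicate 3 and 152 in NC ad lib replicate 4, and at 32.8 to 64.3 CPM in the 9 other mice.

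The choroid plexus, the epithelium that secretes cerebrospinal fluid, borders the hippocampus, and its markers varied most among the mice. Their summed level was 6330, 20900, 809, 708, 7740 and 20400 CPM in NC ad lib replicates 1 to 6 and 332, 258, 12100, 488, 1820 and 1440 CPM in HFS ad lib replicates 1 to 6. Of the 15 markers 14 had negative differences, with a median of -1.49. The median was -1.32 without HFS ad lib replicate 2 and -2.94 without HFS ad lib replicate 3. None of the 15 was called, and the ranges of the diets overlapped. Ttr, the thyroxine carrier transthyretin, was the most abundant at 4070 CPM and none of the 15 was at 0. Its values were 375 CPM at the lowest, 4360 at the median and 15200 at the highest in NC ad lib and 98.7, 600 and 8190 in HFS ad lib, and the difference was -1.83 ± 1.21 (log2, SE). Meningeal fibroblast markers had a median of -0.67 over 12 genes, with Ptgds the most abundant at 183 CPM and NC ad lib replicate 6 the highest mouse at 703 CPM. Blood cell markers had a median of -0.38 over 10 genes, led by the haemoglobin gene Hbb-bs, whose paralogs share reads with it, and Cd3e was at 0 in all 12 mice. With the choroid plexus level as a covariate, or without NC ad lib replicates 2 and 6 and HFS ad lib replicate 3, which were highest in it, edgeR called 0 genes at HC zt15 in either direction, and 2859 and 2669 had an unadjusted p below 0.05. The part of these cells in the other diet differences was not tested.

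On the lower side edgeR called 0 genes, with 2011 at an unadjusted p under 0.05, and DESeq2 called 7. The 6 with the smallest p in edgeR are given as values. Chd1l (ENSMUSG00000028089, chromosome 3, 97467399 to 97517569), a chromatin remodeler of DNA repair, came closest. Its NC ad lib mice were at 9.13 CPM at the lowest, 10.1 at the median and 12.7 at the highest, and its HFS ad lib mice at 6.77, 7.98 and 9.03. All 6 HFS ad lib mice lay below all 6 NC ad lib mice, and replicate 2 was the highest of the HFS ad lib group. The difference was -0.40 ± 0.09 (log2, SE, n = 6 and 6), with an adjusted p of 0.0555 by edgeR (0.00914 to 0.874 over the alternatives tried), and it was -0.44 without replicate 2. DESeq2 called it in both cases, with adjusted p of 0.00914 and 0.0242. The 5 mice on HFS TRF at the same hour, fed the same diet in a restricted window, were at 7.69 to 10.3 CPM with a median of 8.

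Lrrc56 (ENSMUSG00000038637, chromosome 7, 140773995 to 140789989), a gene of cilia, was at 6.41, 9.03 and 10.6 CPM (lowest, median and highest) in NC ad lib and at 4.93, 6.07 and 8.1 in HFS ad lib. All 6 HFS ad lib mice lay below the NC ad lib median, and the difference was -0.49. Wdr6 (ENSMUSG00000066357, chromosome 9, 108449499 to 108455938), a cofactor of tRNA methylation, was at 147, 224 and 292 CPM against 110, 166 and 185, a difference of -0.46. The differences of Gm56815 and Iqck were -0.69 and -0.86. Gm15564 (ENSMUSG00000086324, chromosome 16, 35776121 to 35803658), a non-coding RNA, had a fitted difference of -2.16 that came from NC ad lib replicate 6. That mouse was at 219 CPM and the 11 others at 5.15 to 17.9, and without it the difference was 0.60. Cell-type markers in the same mouse gave the highest meningeal fibroblast sum of the 12.

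The groups did not overlap at all for 17 genes that averaged at least 1 CPM, 10 higher in HFS ad lib (0.0686% of 14577) and 7 lower (0.048%). If every order of the mice were equally likely, 15.8 genes each way (0.108%) would separate fully, so these counts are no more than chance gives. Of these 17 genes, edgeR called none. Cntn2 (ENSMUSG00000053024, chromosome 1, 132437165 to 132470994), which holds together the membrane next to the node of Ranvier in myelinated axons, was at 46 to 52.9 CPM in NC ad lib and 56.7 to 72.7 CPM in HFS ad lib. The difference was 0.37 ± 0.10 (log2, SE) with and without replicate 2, and HFS TRF mice at zt15 were at 50.5 to 59.9 CPM. Crhbp (ENSMUSG00000021680, chromosome 13, 95567879 to 95581841), a secreted protein that binds corticotropin-releasing hormone, was at 22.4 to 30.6 CPM against 30.8 to 40.4 CPM, a difference of 0.38. Nap1l5, an imprinted gene, was at 208 to 247 CPM against 251 to 333 CPM, a difference of 0.29. The interferon-induced gene Ifit2 was at 4.78 to 5.42 CPM against 5.68 to 7.22, and the transcription factor gene Insm1 at 7.9 to 10.6 against 10.9 to 12.2. The others on the higher side were Tm6sf1, Bfsp2, Lysmd4, B630019K06Rik and 3110056K07Rik, with differences between 0.17 and 0.53. On the lower side, next to Chd1l, stood Cand2 at 3.69 to 6.86 CPM against 1.57 to 3.63, a difference of -0.85, and Uvssa, Zcchc3, Gm3571, Gm5089 and Gm14539, between -0.24 and -0.60. These genes were picked because their groups do not overlap, so the separation itself is a description.

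The next genes were chosen for their positive differences after their values were seen, except Sst, and none was called. They are no fixed list, and other genes of the same kind, such as the peptide gene Cck at 0.10, are not counted with them. The calcium buffer gene Pvalb (ENSMUSG00000005716, chromosome 15, 78075314 to 78091149) was at 130 CPM at the lowest, 149 at the median and 201 at the highest in NC ad lib and at 180, 189 and 202 in HFS ad lib. All 6 HFS ad lib mice were above the NC ad lib median, and the difference was 0.30 ± 0.08 (log2, SE), with an adjusted p of 0.175 by edgeR. Npy (ENSMUSG00000029819, chromosome 6, 49799026 to 49806489), which encodes neuropeptide Y, was at 35.1, 42.8 and 49 CPM against 40.2, 63.1 and 81.4. Its difference was 0.49 and 0.57 without replicate 2, which at 41.8 CPM lay inside the NC ad lib range. Somatostatin, Sst, was at 89.1, 105 and 127 CPM against 109, 133 and 180, a difference of 0.35. Gad2, Slc32a1 and Cnr1, which serve GABA synthesis, its vesicular loading and endocannabinoid signalling, differed by 0.28, 0.26 and 0.23, and the satiety peptide gene Cartpt by 1.06. The muscarinic receptor gene Chrm2 differed by 0.62, and by 0.72 without replicate 2 (adjusted p = 0.294 by edgeR).

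The receptor and channel lists leaned upward by small amounts, which shrank without HFS ad lib replicate 6. Among all genes averaging at least 1 CPM, 51.2% were positive and 4.47% reached an unadjusted p under 0.05 upward by edgeR, and 49.1% and 3.17% without replicate 2. Of 33 glutamate receptor genes 30 had positive differences, with a median of 0.12 (0.14 without replicate 2), and 2 reached an unadjusted p under 0.05. Of 38 voltage-gated channel genes 33 were positive with a median of 0.09, and without replicate 2 the count was 37, the median 0.12 and 9 reached an unadjusted p under 0.05. With all mice 6 of the 38 did so, all upward, and 2 of these were picked after their values were seen. Scn1a, the sodium channel of fast-spiking interneurons, differed by 0.27 and by 0.34 without replicate 2. Kcnc2, a fast potassium channel, differed by 0.23 and 0.29. The 23 GABA and glycine receptor genes had a median of 0.11 with 17 positive. The 29 monoamine and acetylcholine receptor genes had a median of 0.06 and the 24 genes of intracellular calcium release of 0.03. No gene of these lists was called. HFS ad lib replicate 6 had the highest sum of the glutamate receptor list, at 9990 CPM against 5790 to 8240 in NC ad lib, and of the CA1 markers, at 982 CPM. Without this mouse the glutamate receptor list had 22 positive differences and a median of 0.03, the voltage-gated channel list 22 and 0.03, and the GABA and glycine receptor list 17 and 0.03.

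Activity-induced genes, the immediate early genes that neurons switch on within minutes of firing, had a median of 0.15 with 19 of 25 positive (51.2% over all genes averaging at least 1 CPM), and of 0.22 with 22 positive without replicate 2 (49.1% over all). Without HFS ad lib replicate 6 it was 0.06 with 16 positive. Arc, the most abundant, was at 166 CPM at the lowest, 230 at the median and 384 at the highest in NC ad lib and at 208, 281 and 359 in HFS ad lib. Nr4a2 differed by 0.45 and Homer1 by 0.23. The 7 RNAs that stay in the nucleus, a sign of how much nuclear RNA the capture carried, had a median of 0.24 and 5 positive differences, with Meg3 at 0.35 and Malat1 at 0.54. The 13 mitochondrially encoded genes had a median of 0.16.

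Genes of lipid metabolism leaned downward without any call. Of 26 cholesterol synthesis and uptake genes 17 had negative differences, with a median of -0.08. By edgeR 5 of them and 1 positive one reached an unadjusted p under 0.05, against 5.32% downward and 4.47% upward among all genes averaging at least 1 CPM. The 5 were Srebf1, Mvk, Lss, Nsdhl and Insig1, at -0.60, -0.25, -0.27, -0.27 and -0.23, while Hmgcs1, the most abundant, differed by -0.11. Without replicate 2 the split was 12 positive and 14 negative, the median -0.04, and 2 genes each way reached an unadjusted p under 0.05 by edgeR. Srebf1 was highest at 36 and 39.7 CPM in NC ad lib replicates 2 and 6, the mice highest in choroid plexus markers. Of 23 fatty acid synthesis and storage genes 16 were negative with a median of -0.07. Scd1 (ENSMUSG00000037071, chromosome 19, 44382894 to 44399154), which desaturates stearic acid, was at 38.4, 69.6 and 104 CPM (lowest, median and highest) in NC ad lib and at 28.5, 44.2 and 60.5 in HFS ad lib. All 6 HFS ad lib mice lay below the NC ad lib median, the difference was -0.61 ± 0.20 (log2, SE) and -0.51 without replicate 2, and the adjusted p was 0.322 by edgeR. It, too, was highest in NC ad lib replicates 6 and 2, at 104 and 79.9 CPM. Its more abundant paralog Scd2 differed by -0.17. Of 25 genes of fatty acid oxidation, ketone use and fasting 19 were negative with a median of -0.12, and Acadvl, the first enzyme of long-chain beta-oxidation, differed by -0.39 and was highest in the same 2 mice, at 67.8 and 74.9 CPM. The 76 nuclear oxidative phosphorylation genes had a median of -0.02, with 50 negative, and without replicate 2 of -0.05 with 60 negative. Without HFS ad lib replicate 4 they split into 38 positive and 38 negative, with a median of 0.00.

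Insulin and insulin-like growth factor signalling genes showed no common direction, with 10 positive and 15 negative of 25 and a median of -0.02. Among them Foxo1, which insulin keeps out of the nucleus, differed by -0.30 and Pik3ca by 0.21. Igfbp2, at -2.01, followed the choroid plexus sum, with 15.7 to 368 CPM in NC ad lib and 7.56 to 108 in HFS ad lib. The 20 leptin and feeding genes had a median of 0.19, with 14 positive, and the 20 glucocorticoid targets of 0.02. Without HFS ad lib replicate 6 the leptin and feeding genes had a median of 0.11, with 11 positive and 9 negative. The glucocorticoid-induced metallothionein gene Mt1 differed by -0.05.

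Stress lists differed little. Against 51.2% of all genes averaging at least 1 CPM, 21 of 25 genes of the unfolded protein response had positive differences, with a median of 0.13 (15 and 0.06 without HFS ad lib replicate 3, 17 and 0.07 without replicate 6), and Hspa5, the endoplasmic reticulum chaperone BiP, was at 237, 268 and 428 CPM in NC ad lib and 216, 354 and 505 in HFS ad lib. Of 22 heat shock and chaperone genes 16 were positive with a median of 0.07, and Hsp90ab1 differed by -0.03. The 22 genes of complement, antigen presentation and interferon had a median of 0.21 with 18 positive, or 0.12 without replicate 2, and Stat3, the most abundant, differed by 0.06. The 22 cytokine and activation genes had a median of 0.04 and the 16 reactive astrocyte genes of 0.09, where Lcn2 was the single call. Without HFS ad lib replicate 2 the reactive astrocyte median was -0.02, with 7 positive, 9 negative and 0 called. Ribosomal protein genes had a median of 0.02 over 79 genes, Wnt and Notch genes of -0.02 over 31, and the astrocyte glutamate handling genes of -0.03 over 12. Slc1a2, the main glutamate transporter of astrocytes, differed by -0.03 ± 0.21 (log2, SE).

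**Figure D3:**
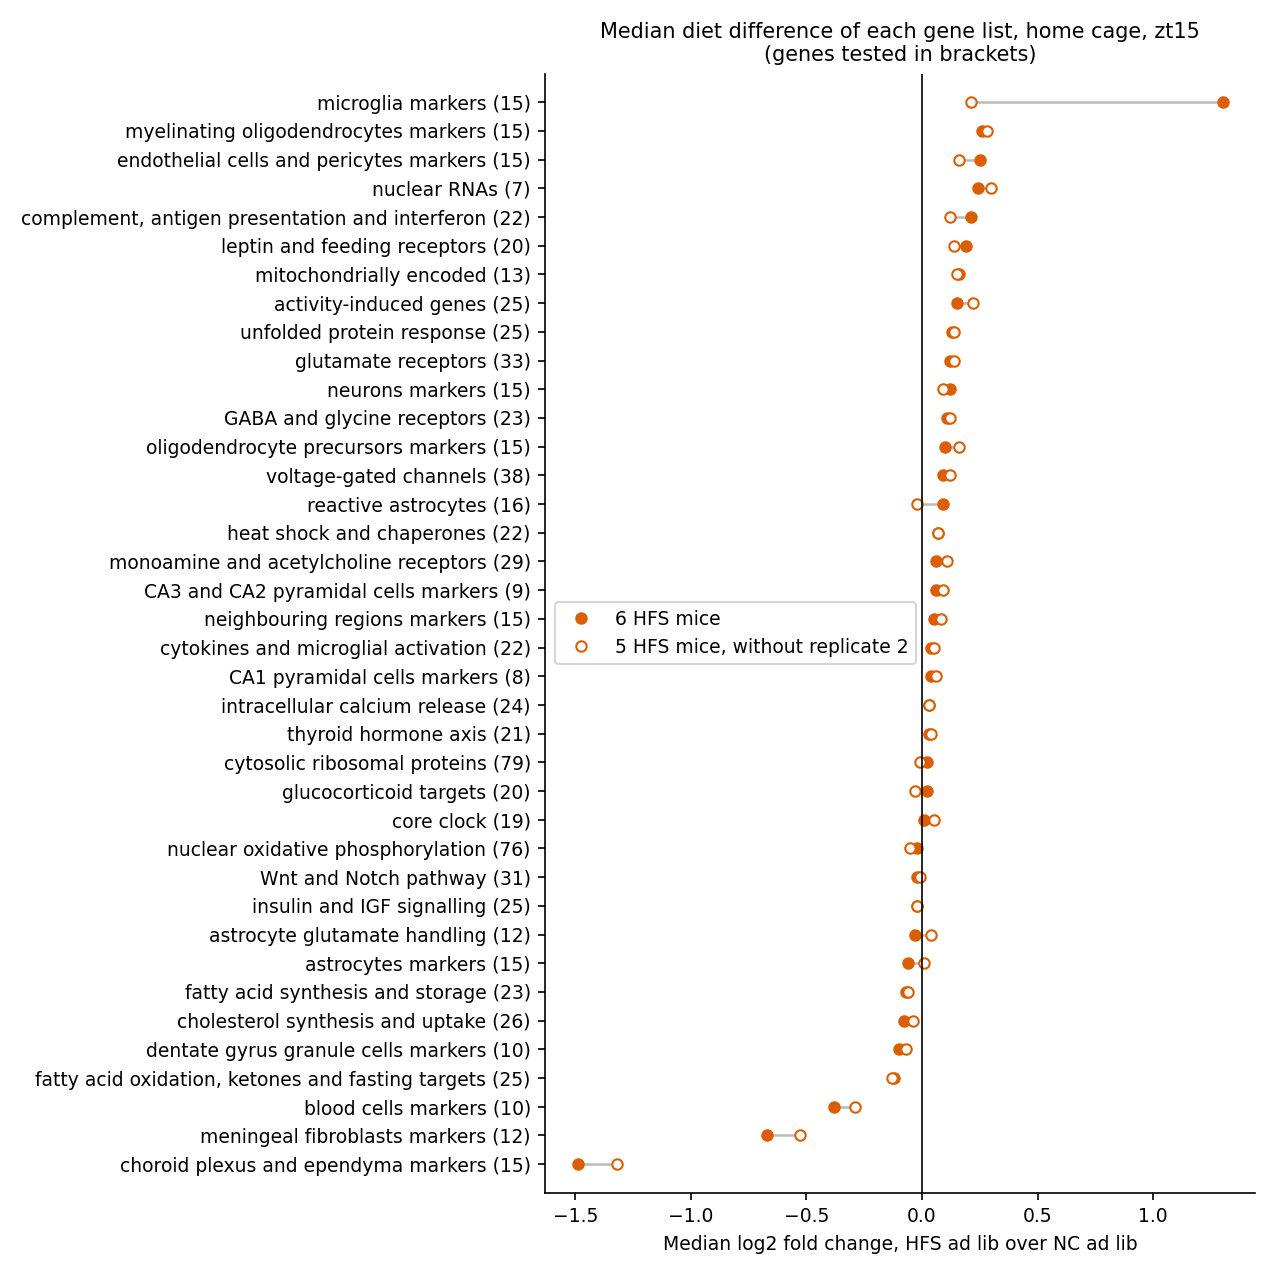
Median log2 fold change (HFS ad lib over NC ad lib at HC zt15) of each of 38 gene and marker lists, filled circles with all 6 HFS mice and open circles without HFS ad lib replicate 2, with the number of genes tested in brackets. The microglia median moved from 1.30 to 0.21 and the choroid plexus and ependyma median from -1.49 to -1.32. Without HFS ad lib replicate 3, which is not drawn, the choroid plexus and ependyma median was -2.94.

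Clock genes differed little at zt15. The activators Bmal1, Clock and Npas2 differed by -0.03, 0.07 and 0.01, the repressors Per1, Per2, Per3, Cry1 and Cry2 by 0.10, 0.06, 0.00, -0.05 and 0.01, and Nr1d1 and Nr1d2 by -0.11 and -0.02, all with standard errors of 0.14 or less. Nr1d1 overlaps Thra on chromosome 11, and without a stated strand setting their reads cannot be fully told apart. Over the 19 clock genes tested the median was 0.01, and 1 of them, Nfil3, reached an unadjusted p under 0.05 at a difference of 0.35. The thyroid hormone receptor genes Thra and Thrb differed by -0.01 and 0.05, and the activating deiodinase gene Dio2 by -0.12. The inactivating deiodinase gene Dio3 (ENSMUSG00000075707, chromosome 12, 110245502 to 110247531) was at 0.822, 2.24 and 4.27 CPM (lowest, median and highest) in NC ad lib and at 0.489, 1.29 and 1.88 in HFS ad lib, a difference of -0.82 ± 0.38 (log2, SE) with an adjusted p of 0.378 by edgeR. The thyroid hormone transporter gene Slco1c1 differed by -1.05. It was high in the mice with high choroid plexus sums, and with that list as a covariate its difference was 0.02.

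How large a diet difference could these mice have hidden? For the 14577 genes averaging at least 1 CPM, the median standard error of the log2 difference was 0.11, and the 95% interval of 93% of them lay within a 2-fold change in either direction. For 80.4% it lay within 1.5-fold. Without HFS ad lib replicate 2 these shares were 93.4% and 79.8%. The genes with wider intervals include those of the choroid plexus, such as Ttr.

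The diet difference at night was set beside that of 2 other pairs of groups, none of which shares a mouse with it. The first were home cage mice taken by day (HC zt3), from the first experiment of the series, which means that a contrast of day with night is also one of experiments. There edgeR called 0 genes (0%), with 2527 (8.38%) at an unadjusted p under 0.05, and DESeq2 also called 0. The test of whether the diet difference itself differed between HC zt15 and HC zt3 called 0 genes (0%) by edgeR and by DESeq2, with 2828 and 1870 at an unadjusted p under 0.05. C1qa differed by 0.26 by day and Chd1l by -0.01. Across the 14577 genes, which are not independent of one another, the correlation of the 2 sets of differences was -0.12 (Pearson), and 51% had the same sign.

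The second were mice taken at the same hour 12 h after object recognition training (ORM+12 h), where edgeR called 684 genes (2.27%), 230 higher and 454 lower in HFS ad lib. It called 0 with only the groups compared, where 4103 had an unadjusted p below 0.05, and 2 with only the mice at zt15. The 230 higher genes had a median of 0.37 at ORM+12 h and of -0.04 at HC zt15, where 71 had the same sign. The 454 lower genes had a median of -0.30 and of 0.00, and 219 had the same sign. Without HFS ad lib replicate 2, the sign was the same for 93 of 247 higher genes and 294 of 484 lower genes. Across all 14577 genes the correlation was -0.58 (Pearson) and 44.2% had the same sign. Choroid plexus markers had a median of 2.37 at ORM+12 h against -1.49 at HC zt15, and with that list as a covariate in the model the correlation was 0.00 and 51.6% had the same sign.

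**Figure D4:**
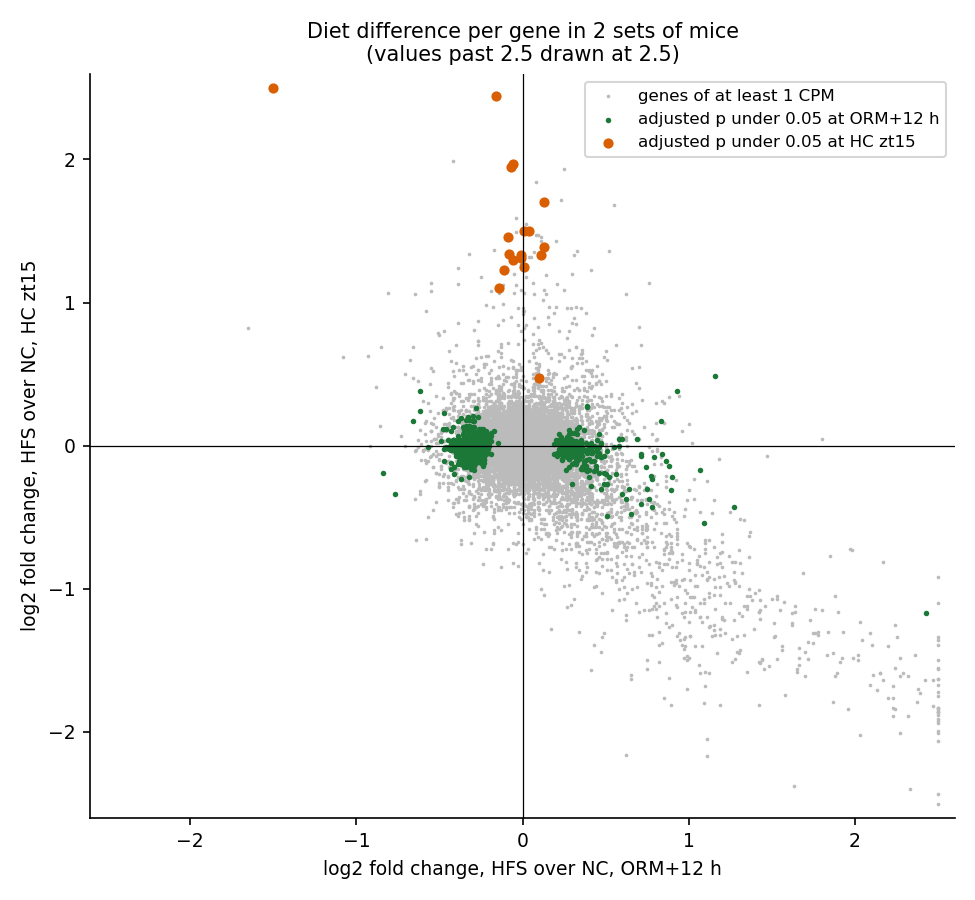
Log2 fold change of each gene averaging at least 1 CPM (HFS ad lib over NC ad lib) at ORM+12 h on the horizontal axis and at HC zt15 on the vertical axis, with genes called at ORM+12 h in green and at HC zt15 in orange, and values past 2.5 drawn at 2.5. The correlation across genes was -0.58, and the genes called at HC zt15 lie near 0 on the horizontal axis except Lcn2.

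The diet difference itself differed between HC zt15 and ORM+12 h for 32 genes (0.106%) by edgeR and for 615 by DESeq2. With the choroid plexus list as a covariate edgeR found 3, and with only the groups compared or only the mice at zt15 it found 0, with 3868 and 4311 at an unadjusted p under 0.05. All 32 had opposite signs at the 2 occasions, while 44.2% of all 14577 genes had the same sign. The 32 were selected for a gap between the 2 differences, so opposite signs follow largely from the selection. Of the 32, 22 were called at ORM+12 h and 2, Lcn2 and Gm6311, at HC zt15. For Lrrc56 the difference was -0.49 at HC zt15 and 0.51 at ORM+12 h. For Gpx4, the peroxidase that protects membrane lipids, it was -0.27 and 0.49, with its highest values at HC zt15, 199 and 201 CPM, in NC ad lib replicates 2 and 6. For Map1b, a microtubule protein of growing axons, it was 0.20 and -0.33. The count of 32 moved with single mice. It was 958 without HFS ad lib replicate 3, 457 without NC ad lib replicate 4 and 135 without HFS ad lib replicate 6, and 19, 17, 6, 5 and 3 without HFS ad lib replicate 5, HFS ad lib replicate 4, NC ad lib replicate 3, NC ad lib replicate 6 and HFS ad lib replicate 2. The 3 genes that remained without HFS ad lib replicate 2 were Lrrc56, Ost4 and Spmip3.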

How the data were processed

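Hippocampi of 71 mice in 12 groups were sequenced by the authors after pS6-TRAP with a stranded Illumina kit, and the deposited table holds raw counts per gene. Per the labels, the authors trimmed reads with Trim Galore 0.6.7 and cutadapt 3.4, aligned them to GRCm39 with HISAT2 2.2.0 and counted them with featureCounts of Subread 2.0.3, with a strand setting that is not stated. Genes and coordinates come from GENCODE vM39, which matched 56310 of 57010 genes. Genes with at least 10 counts in total were tested with edgeR 4.0.16 (TMM factors, quasi-likelihood test, 1 model of the 12 groups) in R 4.3.3, and p was adjusted by Benjamini and Hochberg with a threshold of 0.05. Levels are CPM with TMM factors, differences are log2 HFS ad lib over NC ad lib, and intervals are 1.96 standard errors. The scaling assumes that most genes do not differ. The code was tested on simulated data. Tables and figures were made in Python 3.11.15 with pandas 2.3.3, numpy 2.4.6 and matplotlib 3.10.9.

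Named genes are, each way, up to 12 with the smallest adjusted p and a mean of at least 1 CPM (filled to 6 by unadjusted p), up to 5 with the largest fold, up to 6 called and the 2 most abundant genes of each of 38 gene and marker lists, and 15 clock and thyroid genes. Further parts of the rule, genes called only without HFS ad lib replicate 2 and genes whose diet difference differed between HC zt15 and HC zt3, named none. Outside the rule, other genes were named after their values were seen. Among them are list members at an unadjusted p under 0.05, such as Nr4a2, Malat1, Foxo1, Pik3ca, Igfbp2 and Acadvl. Some genes of the rule are not reported here one by one but stay in the tests and lists. Members and lists were chosen with earlier results of these data known.

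The alternatives were DESeq2 1.42.0 (Wald test), its size factors in edgeR, a filter of at least 1 count, filterByExpr, protein-coding genes alone, robust estimation, voom of limma 3.58.1 with sample quality weights, fits of only the groups compared or of the 35 mice at zt15, a replicate block, an added fold threshold of 1.2 and each of the 12 mice left out in turn. Chosen after the data were seen were halved counts, the choroid plexus list as a covariate, the 3 mice highest in that list left out (also together with HFS ad lib replicate 2), and the other alternatives repeated without HFS ad lib replicate 2.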

Additional observations from a re-analysis of the deposited data

Results flagged for a closer look

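For each of the 13 marker lists and the depth, the 6 mice of a diet were looked at for a mouse far from the others, by the gap to the next mouse over the range of all 6. Chance alone marks about 1 in 20 such groups, and here 4 of 28 were marked. One of these, the microglia sum of HFS ad lib replicate 2 at a ratio of 0.993 (859 CPM against 122 to 127), restates what singled this mouse out beforehand and is no separate finding. The choroid plexus and ependyma sum of HFS ad lib replicate 3 had 0.868 (12100 CPM against 258 to 1820), the CA1 sum of HFS ad lib replicate 6 had 0.689 (982 CPM against 739 to 815), and the meningeal fibroblast sum of NC ad lib replicate 6 had 0.658 (703 CPM against 86.5 to 297). Composition of the dissected tissue, handling of the sample and the state of the mouse cannot be told apart for these libraries, and none of them was tested.

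The diet difference was not the same at HC zt15 and at ORM+12 h for 32 genes by edgeR. Those with the smallest p and a mean of at least 1 CPM were Lrrc56, Synrg, Epb41l3 and Gpx4, with a difference between the 2 occasions of -1.0, 0.42, 0.46 and -0.75 (log2). With the choroid plexus list as a covariate the count was 3. It was 0 with only the groups compared, only the mice at zt15 or a replicate block. The cause was not tested.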

How the results depend on the processing

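The count of 19 genes higher in HFS ad lib at HC zt15 was 18 to 24 with the size factors of DESeq2, the other 2 filters, protein-coding genes alone, a fold threshold or halved counts. It was 50 with DESeq2. It was 0 with robust estimation, voom, only the groups compared, only the mice at zt15, the choroid plexus list as a covariate and the 3 mice highest in that list left out, where 3668, 1564, 1780, 2534, 2859 and 2669 had an unadjusted p below 0.05. With 1 mouse left out it ran from 0 to 37. The count of 0 genes lower was 7 with DESeq2, 2 with filterByExpr, 1 with protein-coding genes alone and 0 to 4 with 1 mouse left out. Without HFS ad lib replicate 2, the 0 genes higher became 1 with DESeq2 and 1 with voom, and the 0 genes lower became 3 with DESeq2, 1 with voom and 0 to 1 with another mouse left out.

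The diet difference at HC zt15 against HC zt3 gave 0 genes in every setting. The 32 genes of HC zt15 against ORM+12 h became 615 with DESeq2, 17 with a filter of 1 count, 73 with filterByExpr, 0 with only the groups compared or only the mice at zt15 (3868 and 4311 at an unadjusted p under 0.05), 3 with the covariate, 21 without the 3 mice and 3 to 958 with 1 mouse left out. The 684 genes at ORM+12 h became 1354 with DESeq2, 1412 with voom, 0 with only the groups compared (4103 at an unadjusted p under 0.05) and 2 with only the mice at zt15. At HC zt3 voom called 1 gene. The cause of these moves was not tested.

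The labels share replicate numbers between groups but do not say that a number pairs mice. With the number as a block, the count was 0 at HC zt15 in either direction (1353 genes at an unadjusted p under 0.05), 0 for HC zt15 against ORM+12 h (3669) and 5 at HC zt3. At ORM+12 h it was 694 with the block and 0 for the same mice without it. The same-numbered mice of the 2 diets at HC zt15 correlated at 0.21, -0.039, -0.34, 0.31, 0.22 and 0.17, and not every mouse correlated best with its own number. The chow mice 1, 4 and 5 did, and only for replicate 4 did the mouse on HFS as well.

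For 106 named genes under 2646 settings in total, 2441 values stayed on their side of the threshold, 184 lost the call, 17 gained one and 4 turned direction. A turn was counted where the gene was called in either fit or its difference was larger than its standard error, and many smaller differences also crossed 0. All 14 called genes among them lost the call somewhere. With 1 mouse left out, Gm15564 ran from -2.45 to 0.60 (without NC ad lib replicate 6). The other turns by this rule were Gm15564 at 0.59 and Prkcd at -0.11 without the 3 mice and Slco1c1 at 0.02 with the covariate.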
